A study of Mus musculus with 6 samples.

Results

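The 33 genes described here are the regulators of the sterol regulatory element-binding proteins (SREBPs) and the enzymes of sterol and fatty acid synthesis whose genes these factors control. They were chosen by name, as rows of the expression table whose Ensembl identifier maps to the listed genes, and all 33 were found among 22962 genes. They fall into 5 regulators, a sterol arm of 19 genes and a fatty acid arm of 9 genes. RNA was sequenced from lavage cells labelled alveolar macrophages, taken from the airways of C57BL/6 mice that had received saline or bleomycin into the trachea 2 weeks before. Bleomycin is a DNA-damaging drug used to model pulmonary fibrosis, and saline was the control. The saline group held replicates 1, 2 and 3, and the bleomycin group held replicates 1, 2 and 5. No transgene or other treatment is named for either group. Macrophages were enriched by letting the washed lavage cells stick to plastic in serum-containing medium for a short time, not by a sort, so other adherent lavage cells could be present. Whether each library came from a different mouse is not stated in the labels, so the spread on which each p-value rests may be technical.

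SREBPs are made as precursors in the membrane of the endoplasmic reticulum. When membrane cholesterol is low, the escort protein SCAP carries them to the Golgi, where proteases release the part that enters the nucleus and binds sterol regulatory elements. When cholesterol is plentiful, INSIG proteins hold SCAP back. SREBP2, from Srebf2, acts mainly on genes of cholesterol synthesis and uptake, and SREBP1, from Srebf1, mainly on genes of fatty acid synthesis and desaturation. Alveolar macrophages take up and degrade surfactant, a mixture rich in phospholipid and cholesterol, and so handle a large load of outside lipid. The files measure RNA and not SREBP cleavage or lipid.

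Values are normalized read counts, given for saline replicates 1, 2 and 3 and then for bleomycin replicates 1, 2 and 5, in that order. Differences are log2 changes of bleomycin against saline on the log2(value + 1) scale, with the standard error (SE) and an adjusted p from limma's moderated test, and a gene was called where that p was under 0.05. Each library held 27654799 to 37147983 reads over all genes, and 3 reads of a gene amounted to a value of 2.59 to 3.3, depending on the library. Among 13512 tested genes 1319 were called higher after bleomycin (9.76%) and 527 lower (3.9%), and quantile normalization gave 1114 and 752. The median log2 change of all tested genes was -0.01. In bulk libraries a change in the RNA of each cell and a change in the cells present cannot be told apart, and the labelled cell type bears on this. None of 12 markers of resident alveolar macrophages was at 0 throughout either group, and their summed level was 715579, 572980 and 676098 in saline and 427290, 351572 and 309288 after bleomycin, with 8 of 12 called lower. That sum is mostly Chil3, with a mean of 402547 in saline and 221981 after bleomycin. Marco, Pparg, Itgax and Fabp4 were not called. The summed level of 12 markers of monocyte-derived macrophages was 3925, 3649 and 4402 in saline and 146784, 249327 and 275589 after bleomycin, with 12 of 12 called higher. Most of it is Apoe, with a mean of 2319 in saline and 166533 after bleomycin. The part of this shift in the results below was not tested.

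**Figure D1:**
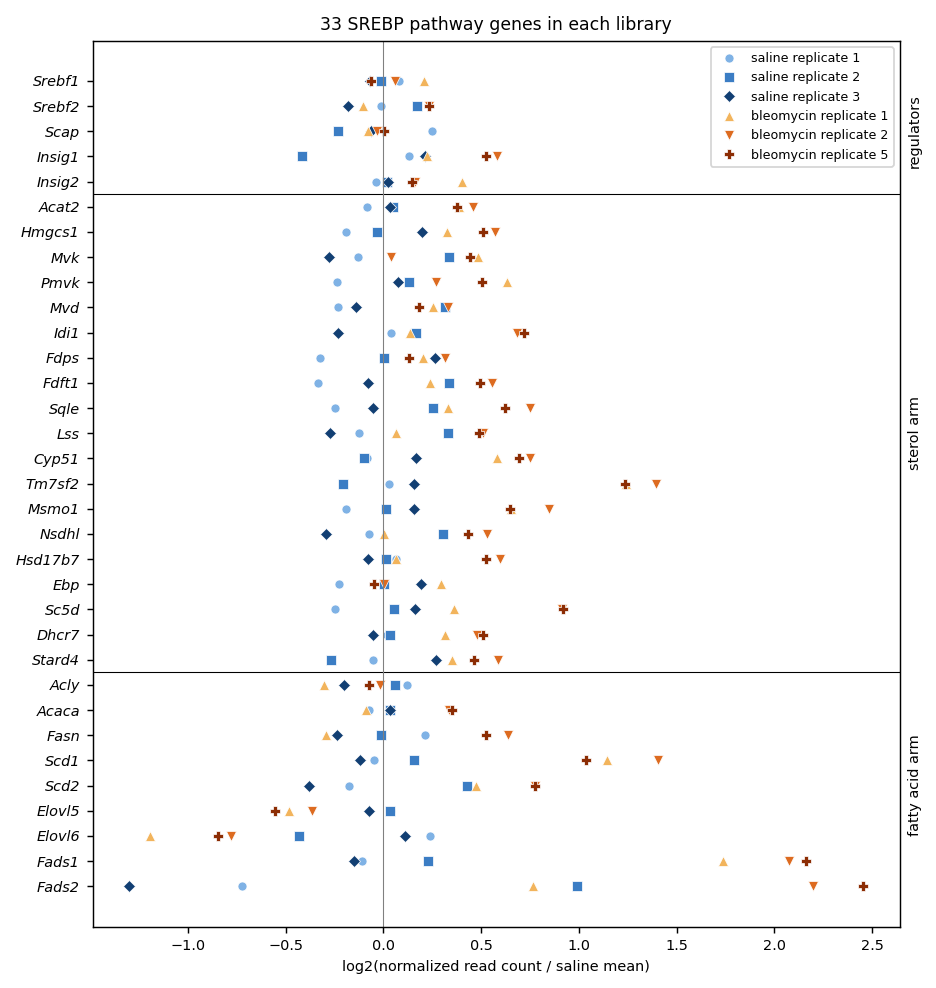
Each point is 1 library's normalized read count for 1 gene, as log2 of its ratio to the saline mean (horizontal axis), with genes in rows grouped as regulators, sterol arm and fatty acid arm. Tm7sf2, Scd1 and Fads1 have all 3 bleomycin libraries far to the right of all 3 saline libraries, Elovl5 and Elovl6 have them to the left, and Srebf1 and Scap overlap.

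None of the 5 regulators was called in either direction, which does not show that their levels were equal. The median of their log2 changes was 0.13. Insig1 and Insig2 each had all 3 bleomycin libraries above all 3 saline libraries, without passing the threshold. Of all tested genes, 17.2% had groups apart in that direction. edgeR and DESeq2 also called 0 of the 5. By limma 1 of the 5 had an unadjusted p under 0.05, as did 3496 of all 13512 tested genes.

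Srebf1 (ENSMUSG00000020538, chr11:60199089-60222581, minus strand of GRCm38) had 3710.4, 3489 and 3349 in saline and 4064, 3664 and 3365 after bleomycin. Its log2 change was 0.07 with a 95% interval of -0.19 to 0.33 (SE 0.11, adjusted p = 0.769), and the groups overlapped. Srebf2 (chr15:82147181-82205379, plus strand) had 4601, 5237 and 4096 in saline and 5459 and 5467 in bleomycin replicates 2 and 5, while bleomycin replicate 1, at 4324, lay inside the saline range. The interval of its log2 change was -0.19 to 0.45 around 0.13 (SE 0.14, adjusted p = 0.645). The smallest called rise of the sterol arm, a log2 change of 0.43 for Dhcr7, lies above the interval of Srebf1 and just inside that of Srebf2. Its own 95% interval, 0.19 to 0.68, overlaps both, and the difference between these genes was not tested. Per kb of exon, the ratio of Srebf2 to Srebf1 was 0.972, 1.18 and 0.959 in saline and 0.835, 1.17 and 1.27 after bleomycin, again overlapping. Some exon bases of Srebf1 are shared with Mir6922 and, on the opposite strand, with Rai1, whose log2 change was 0.05.

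Scap, the escort protein, had 2227, 1597 and 1794 in saline and 1771, 1833 and 1879.95 after bleomycin, with a log2 change of -0.02 (SE 0.14, adjusted p = 0.949). All 3 bleomycin values lay between the highest and the lowest saline values. Insig1, which is itself an SREBP target, had 5123, 3514 and 5422 in saline and 5467, 7003 and 6755 after bleomycin, a log2 change of 0.47 (SE 0.18, 95% interval 0.06 to 0.88, adjusted p = 0.141). Saline replicate 2 was the lowest of the 6, and the gap between the groups was narrow, from 5422 to 5467. Insig2, which is controlled largely by other factors, had 409, 425 and 426 in saline and 555, 470.3 and 465 after bleomycin (log2 0.24, SE 0.14, adjusted p = 0.342). Here bleomycin replicate 1 was the highest of its group, whereas for Insig1 it was the lowest. Insig1 stood 9.29 to 14.3 times above Insig2 per kb in saline and 11.1 to 16.7 times after bleomycin.

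The sterol arm moved upward. Bleomycin raised 7 of its 19 genes (36.8%, against 9.76% of all tested genes) and lowered none, and all 19 had a log2 change above 0, against 48.71% of all tested genes. The count fell to 3 on removal of saline replicate 1, of bleomycin replicate 2 or of bleomycin replicate 5, and with no intensity trend in the fit. With a block on replicate number it was 2. The median log2 change was 0.46 and the range was 0.09 to 1.29. The called genes were Hmgcs1 at the entry of the pathway, Sqle at the first oxygen-requiring step, and Cyp51, Tm7sf2, Msmo1, Sc5d and Dhcr7 among the steps that turn lanosterol into cholesterol. In 11 of 19 the groups did not overlap, against 17.2% of all tested genes in that direction. Together the 19 genes took 0.0962%, 0.111% and 0.107% of each saline library's reads and 0.129%, 0.147% and 0.139% of each bleomycin library's.

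**Figure D2:**
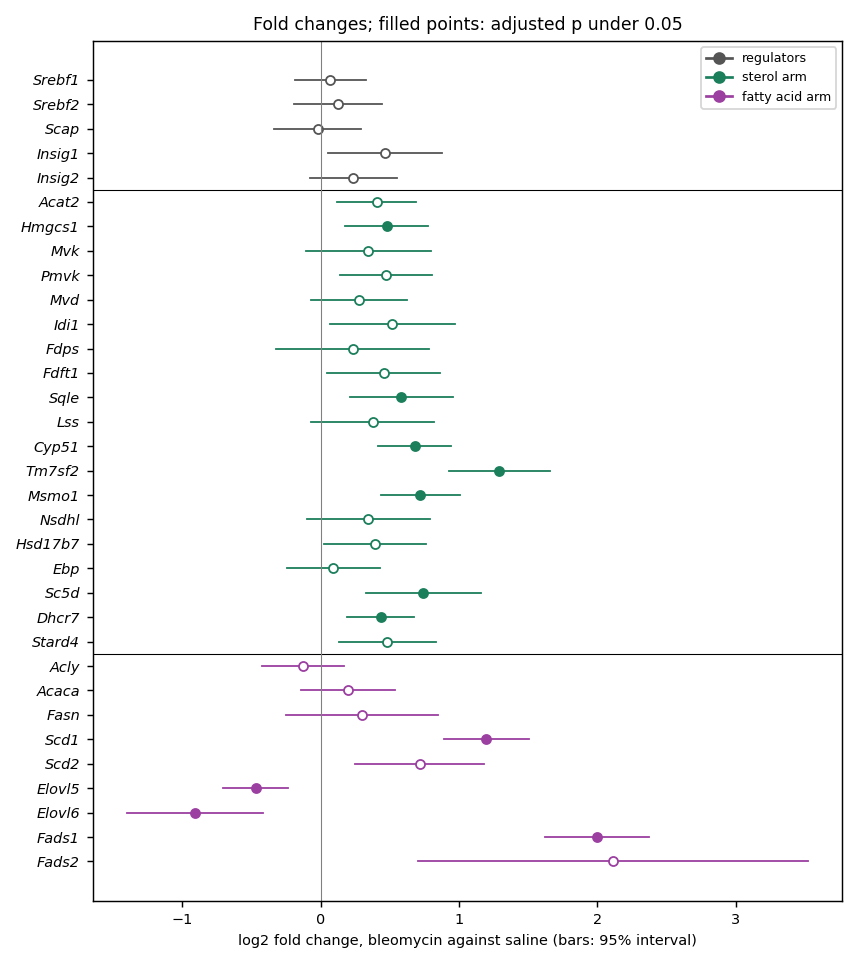
Log2 change of bleomycin against saline for each of the 33 genes (horizontal axis) with its 95% interval from limma, 3 libraries a group, with filled points for genes called at an adjusted p under 0.05. Every point of the sterol arm lies to the right of 0 (0.09 to 1.29), whereas those of the fatty acid arm run from -0.91 to 2.11.

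In the first steps, from acetyl-CoA to the isoprenoids, 1 member of the arm was called. Hmgcs1 (ENSMUSG00000093930, chr13:119690379-119708260, plus strand), the HMG-CoA synthase of the cytosol, had 4755, 5311 and 6241 in saline and 6821, 8088 and 7727 after bleomycin. The 3 bleomycin libraries lay above the 3 saline ones, and the rise was 1.39-fold (log2 0.48, SE 0.13, adjusted p = 0.0453). This call was close to the threshold, and the adjusted p was 0.111 to 0.185 once saline replicate 1 or 2, or bleomycin replicate 2 or 5, was left out.

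The other members of the arm in these steps did not pass the test. Acat2, the thiolase that joins acetyl-CoA units, had 439, 481 and 476 in saline and 608, 639 and 604 after bleomycin (log2 0.41, adjusted p = 0.0695), with each group in a narrow band and no overlap. Mvk, the mevalonate kinase, gave a log2 change of 0.35 and Pmvk, the phosphomevalonate kinase, gave 0.48, with adjusted p-values of 0.332 and 0.0672. Mvd, the decarboxylase of the pathway and the gene of the sterol arm with the highest level per kb, had 2781, 4059 and 2963 in saline and 3903, 4110.4 and 3709 after bleomycin (log2 0.28, SE 0.15, adjusted p = 0.308). Saline replicate 2 reached the bleomycin range. Idi1, the isomerase, was at 375, 409 and 309.7 in saline and 399.7, 585 and 599.9 after bleomycin, so that bleomycin replicate 1 fell within the saline range (log2 0.52, adjusted p = 0.137). Without that library Idi1 passed the test (adjusted p = 0.0269).

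Fdps, the farnesyl diphosphate synthase, was the lowest gene of the sterol arm at 57.9 to 87 in saline and 79.3 to 90.1 after bleomycin (log2 0.23, adjusted p = 0.629). Its exons share bases with Gm43738 on the same strand, and how reads in the shared bases were counted is not given in the sources used here, so its level is uncertain. Exon bases are shared with another annotated gene in 11 of the 33.

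At the squalene and lanosterol steps Sqle and Cyp51 rose. Sqle (ENSMUSG00000022351, chr15:59315077-59331192, plus strand), the squalene epoxidase and a second point of control of the pathway, had 1390.4, 1967 and 1589 in saline and 2074, 2768 and 2541 after bleomycin. The rise was 1.5-fold (log2 0.58, SE 0.16, adjusted p = 0.049), with a small gap between saline replicate 2 and bleomycin replicate 1. Without saline replicate 1 or 3, or without bleomycin replicate 2 or 5, its adjusted p was 0.132 to 0.191. Fdft1, the squalene synthase, gave a log2 change of 0.46 (adjusted p = 0.146), and Lss, which closes the sterol ring, gave 0.38 (adjusted p = 0.277). Fdft1 shares exon bases on the opposite strand with Ctsb, which had 65714 to 73013 in saline and 148806 to 199260 after bleomycin, and the strand setting of the counting is not given in the sources used here.

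Cyp51 (ENSMUSG00000001467, chr5:4081145-4104746, minus strand), which removes a methyl group from lanosterol, had 4172, 4128 and 4961 in saline and 6616, 7447 and 7156 after bleomycin. The groups were far apart, with means of 4420.3 ± 469 and 7073 ± 422 (SD, n = 3), a rise of 1.6-fold (log2 0.68, SE 0.12, adjusted p = 0.00556). It overlaps Akap9 on the opposite strand, whose log2 change was -0.08 (adjusted p = 0.822). Per kb of exon, Cyp51 was at 1001 ± 106 and Hmgcs1 at 1183 ± 163 normalized reads in saline, and both were among the 4 highest of the 33 after bleomycin, at 1602 ± 95.5 and 1642 ± 142.

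Of the later steps, 4 members of the arm rose. Tm7sf2 (ENSMUSG00000024799, chr19:6062821-6068373, minus strand), a sterol reductase that acts just after Cyp51, had 199, 169 and 217 in saline and 462, 514 and 459 after bleomycin. This was the largest change of the sterol arm, 2.45-fold (log2 1.29, SE 0.16, adjusted p = 0.0013). Tm7sf2 shares exon bases with Vps51 on the same strand, and the log2 change of Vps51 was -0.26 (adjusted p = 0.172). Msmo1 (ENSMUSG00000031604, chr8:64718139-64733792, minus strand), a methylsterol oxidase, had 2379, 2737 and 3029 in saline and 4262, 4886 and 4254 after bleomycin. The lowest bleomycin library was well above the highest saline library, and the rise was 1.65-fold (log2 0.72, SE 0.13, adjusted p = 0.00617). Tm7sf2 and Msmo1 were called under each of the 17 settings tried, and Cyp51 under all of them except the block on replicate number.

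Sc5d (ENSMUSG00000032018, chr9:42251595-42264256, minus strand), a desaturase of the sterol ring, had 928, 1145 and 1230.2 in saline and 1417, 2077 and 2079 after bleomycin. Bleomycin replicates 2 and 5 were alike and replicate 1 lay between them and the saline group, for a rise of 1.67-fold (log2 0.74, SE 0.18, adjusted p = 0.0293). Dhcr7 (ENSMUSG00000058454, chr7:143823145-143848410, plus strand), which makes cholesterol from its last precursor in one branch of the pathway, had 1874, 1889 and 1781 in saline and 2301, 2573 and 2631 after bleomycin. Its rise was the smallest of those called, 1.35-fold, with little spread in either group (log2 0.43, SE 0.11, adjusted p = 0.0292). Both calls were lost when single libraries were left out, that of Sc5d (adjusted p = 0.0649 to 0.125) on removal of saline replicate 1 or 2 or of bleomycin replicate 2 or 5, and that of Dhcr7 without any library other than bleomycin replicate 1 (0.0587 to 0.151).

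The remaining late members of the arm were Nsdhl and Hsd17b7, which act on the same methyl groups as Msmo1, Ebp, an isomerase of the ring, and Stard4, a carrier of cholesterol between membranes. Nsdhl had a log2 change of 0.35 (adjusted p = 0.323), Hsd17b7 0.40 (adjusted p = 0.161) and Stard4 0.48 (adjusted p = 0.0783). Ebp was the gene of the sterol arm with the smallest change, at 2264, 2651 and 3029 in saline and 3251, 2650.2 and 2563.5 after bleomycin (log2 0.09, adjusted p = 0.761). It was also one of 3 sterol arm genes in which bleomycin replicate 1 was the highest of its group. Across the 12 genes of the arm that were not called, the log2 changes ran from 0.09 to 0.52. In 4 of the 12 all bleomycin libraries lay above all saline ones, against 17.2% of all tested genes, called or not. By limma 6 of these 12 had an unadjusted p under 0.05. In the whole arm 13 of 19 did, against 3496 of all 13512 tested genes. The all-gene figures include called genes, and shares among uncalled genes alone were not counted.

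The promoter sequences in front of some of these genes are shown because SREBPs bind short elements there, usually next to a CCAAT box bound by NF-Y. RefSeq windows on GRCm38.p6 were found for 26 of the 33, and the 250 bases before each start were searched on both strands. The 7 without a window were Fdps, Fdft1, Sqle, Stard4, Scd1, Scd2 and Fads1. The called rises of the fatty acid arm, Scd1 and Fads1, were therefore not searched. In the lines below, bases inside the gene as annotated by GENCODE are left out. Capitals mark the sterol regulatory element pattern TCACNCCAC, the CCAAT box, the Sp1 site core GGGCGG and the E-box CACGTG, each on either strand. SREBPs can also bind the E-box. Only exact matches were marked and counted, so a sterol regulatory element that differs from this pattern would be missed. None of these letter runs overlap in the lines shown. Hmgcs1 (chr13:119690101-119690350, plus strand), Cyp51 (chr5:4104747-4104947, minus strand) and Sc5d (chr9:42264301-42264550, minus strand) rose, and Elovl5 (chr9:77917115-77917363, plus strand) and Elovl6 (chr3:129532136-129532354, plus strand) are the fatty acid genes that fell.
Hmgcs1: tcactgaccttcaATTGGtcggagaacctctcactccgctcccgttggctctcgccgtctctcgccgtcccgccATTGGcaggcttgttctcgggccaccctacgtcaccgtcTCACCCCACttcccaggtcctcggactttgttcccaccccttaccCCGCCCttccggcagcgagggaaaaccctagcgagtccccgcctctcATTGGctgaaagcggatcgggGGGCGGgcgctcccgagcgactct
Cyp51: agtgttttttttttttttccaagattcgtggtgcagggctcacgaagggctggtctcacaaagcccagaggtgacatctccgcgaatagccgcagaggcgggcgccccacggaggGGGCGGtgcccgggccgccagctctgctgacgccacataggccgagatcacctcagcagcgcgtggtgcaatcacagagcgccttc
Sc5d: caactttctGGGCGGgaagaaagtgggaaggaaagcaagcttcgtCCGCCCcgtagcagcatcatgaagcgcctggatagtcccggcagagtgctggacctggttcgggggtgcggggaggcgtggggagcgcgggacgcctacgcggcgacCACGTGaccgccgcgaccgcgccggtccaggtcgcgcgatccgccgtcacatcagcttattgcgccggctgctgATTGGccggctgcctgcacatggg
Elovl5: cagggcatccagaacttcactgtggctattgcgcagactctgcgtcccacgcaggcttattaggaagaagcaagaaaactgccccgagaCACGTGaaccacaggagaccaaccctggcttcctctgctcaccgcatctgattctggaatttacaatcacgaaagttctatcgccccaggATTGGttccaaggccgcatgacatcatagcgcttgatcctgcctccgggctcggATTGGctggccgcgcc
Elovl6: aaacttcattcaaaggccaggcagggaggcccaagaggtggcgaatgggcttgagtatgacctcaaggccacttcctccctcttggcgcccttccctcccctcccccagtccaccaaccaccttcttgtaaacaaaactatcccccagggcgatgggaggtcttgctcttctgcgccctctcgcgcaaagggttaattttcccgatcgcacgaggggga

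Distances are from the RefSeq start, which for Hmgcs1 and Sc5d lies upstream of the gene as annotated by GENCODE. For both, the bases just after that start were not found in a GENCODE transcript of the gene. Hmgcs1 carried TCACCCCAC at 137 to 129 bases before its start, between CCAAT boxes that begin 176 and 45 bases before it. Cyp51 carried GGGCGG at 135 to 130 bases before its start, and a CCAAT box nearer the start that is inside the annotated gene and not printed. Sc5d carried a CCAAT box 24 to 20 bases before its start. CCAAT was present before 14 of 15 sterol arm genes, 4 of 5 regulators and 2 of 6 fatty acid genes, against 37.5% of all 27025 genes with a window. GGGCGG was present before 14 of 15, 5 of 5 and 2 of 6, against 35.4% of all genes. The full TCACNCCAC was rare, in 1 of 15 sterol arm genes, 0 of 5 regulators and 0 of 6 fatty acid genes, against 1.23% of all genes, and CACGTG was in 3 of 15, 2 of 5 and 1 of 6, against 6.86%. Genes with several annotated starts counted once if any window held the letters. Elovl5 had CCAAT boxes and an E-box and Elovl6 had none of these letter runs, while both fell. These matches describe letters and not binding.

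The fatty acid arm did not move one way. Of its 9 genes, Scd1 and Fads1 rose, Elovl5 and Elovl6 fell, and 5 did not pass the test. The median log2 change was 0.30 and the range was -0.91 to 2.11. The shares called were 22.2% higher and 22.2% lower, against 9.76% and 3.9% of all tested genes. With single libraries removed, 0 or 1 gene was called lower, and without saline replicate 2 or bleomycin replicate 1, 4 and 5 were called higher. The summed level of the 9 genes overlapped between the groups, at 0.0765%, 0.0764% and 0.0619% of reads in saline and 0.0657%, 0.0832% and 0.0773% after bleomycin.

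**Figure D3:**
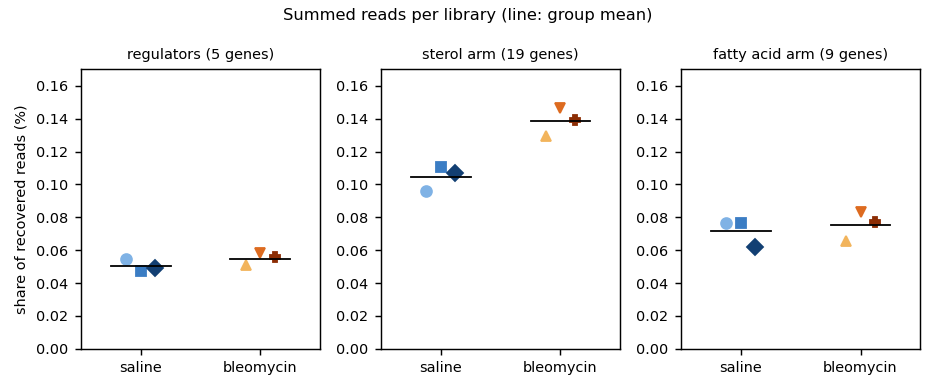
Share of each library's reads (vertical axis, percent, from 0) taken by the regulators, the sterol arm and the fatty acid arm, 1 point per library and a line at the group mean. The sterol arm is at 0.0962% to 0.111% in saline and 0.129% to 0.147% after bleomycin without overlap, whereas the other shares overlap. As summed normalized counts the regulators do not overlap either, at 14261 to 16070 in saline and 16182 to 18429 after bleomycin.

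The enzymes that build palmitate did not pass the test. Acly, which makes acetyl-CoA from citrate and had the highest level per kb of the fatty acid arm in both groups, had 9457, 9054 and 7542 in saline and 7039, 8588 and 8242 after bleomycin. The ranges overlapped, and the log2 change was -0.12 with a 95% interval of -0.42 to 0.17 (SE 0.13, adjusted p = 0.631). Acaca, the acetyl-CoA carboxylase, had 769 to 829 in saline and 759, 1021 and 1032 after bleomycin (log2 0.20, adjusted p = 0.478). Fasn, the fatty acid synthase, had 2292, 1959.99 and 1678 in saline and 1612, 3075 and 2849 after bleomycin (log2 0.30, SE 0.24, 95% interval -0.25 to 0.85, adjusted p = 0.506). For Acly, Acaca and Fasn alike, bleomycin replicate 1 was the lowest of the 6 libraries. Without it Fasn passed the test (adjusted p = 0.0323), so that the Fasn result rests on that library.

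The desaturases held the called rises of the arm. Scd1 (ENSMUSG00000037071, chr19:44394455-44407879, minus strand), a stearoyl-CoA desaturase that makes monounsaturated fatty acids, had 1196, 1379 and 1140.04 in saline and 2737, 3276 and 2540.2 after bleomycin. The means were 1238 ± 125 and 2851 ± 381 (SD, n = 3), a rise of 2.3-fold (log2 1.20, SE 0.14, adjusted p = 0.000891). Scd2 (chr19:44293674-44306864, plus strand), a close relative in the same gene cluster, had 2097, 3196 and 1826 in saline and 3294, 4062 and 4067 after bleomycin. Its groups did not overlap, but saline replicate 2 nearly reached bleomycin replicate 1, and it missed the threshold (log2 0.72, SE 0.20, 95% interval 0.25 to 1.18, adjusted p = 0.0513). Scd2 passed without saline replicate 2 or bleomycin replicate 1 (adjusted p = 0.00672 to 0.0427), by DESeq2, with no filter and with a pseudocount of 5. Per kb of exon, the ratio of Scd1 to Scd2 was 0.637, 0.482 and 0.697 in saline and 0.928, 0.901 and 0.698 after bleomycin, and Scd2 stayed the more abundant of the pair in all 6 libraries. Scd4, which lies between them on chromosome 19, was near the detection limit, at 2.12 to 10.8 in saline and 14.3 to 23.4 after bleomycin (log2 1.62, SE 0.58, adjusted p = 0.113). How reads that match more than 1 Scd gene were counted is not given in the sources used here, and the split between these relatives was not tested.

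Fads1 (ENSMUSG00000010663, chr19:10182888-10196877, plus strand), a front-end desaturase in the synthesis of highly unsaturated fatty acids such as arachidonic acid, had 361, 455 and 351 in saline and 1299, 1637 and 1742 after bleomycin. The lowest bleomycin value was far above the highest saline value, and the means were 389 ± 57.5 and 1559 ± 232 (SD, n = 3). This was the largest called change among the 33, 4.0-fold (log2 2.00, SE 0.16, adjusted p = 0.000217). Fads2 (ENSMUSG00000024665, chr19:10062765-10101746, minus strand), the desaturase that acts earlier in the same route, had 28.4, 93.4 and 19.1 in saline and 79.9, 215 and 258 after bleomycin. Saline replicate 2 was above bleomycin replicate 1, and the log2 change of 2.11 had a wide 95% interval of 0.70 to 3.53 (SE 0.62, adjusted p = 0.0576). Without saline replicate 2 or bleomycin replicate 1 its adjusted p was 0.0143 to 0.0231. Fads1 and Fads2 lie 81141 bases apart on chromosome 19, and Fads3 lies 2654 bases from Fads2. Fads3 had 61.8, 166 and 64.7 in saline and 136, 205 and 234 after bleomycin (log2 1.09, SE 0.40, adjusted p = 0.121), again with saline replicate 2 above bleomycin replicate 1.

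Both elongases of the arm fell. Elovl5 (ENSMUSG00000032349, chr9:77917364-77984519, plus strand), which lengthens polyunsaturated fatty acids between the Fads2 and Fads1 steps, had 5683, 5654 and 5245 in saline and 3949.8, 4287 and 3758 after bleomycin. The groups were well apart, with means of 5528 ± 245 and 3998 ± 268 (SD, n = 3), and the level was 1.38-fold lower (log2 -0.47, SE 0.10, adjusted p = 0.019). Elovl6 (ENSMUSG00000041220, chr3:129532355-129638495, plus strand), which lengthens palmitate to stearate, had 532, 334 and 486 in saline and 197, 263 and 251 after bleomycin. It was 1.88-fold lower (log2 -0.91, SE 0.22, adjusted p = 0.0254), with saline replicate 2 nearest to the bleomycin group. Both calls depended on single libraries. The adjusted p of Elovl5 was 0.0541 to 0.111 when saline replicate 1 or 2, or bleomycin replicate 2 or 5, was removed, and that of Elovl6 was 0.0525 to 0.0887 without any library other than saline replicate 2. In the route to highly unsaturated fatty acids, Fads1 thus rose while Elovl5 fell, and per kb the order of the pair was kept, with Elovl5 at 1569 ± 69.5 against 80.8 ± 12.0 for Fads1 in saline and 1135 ± 76.1 against 324 ± 48.1 after bleomycin.

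**Figure D4:**
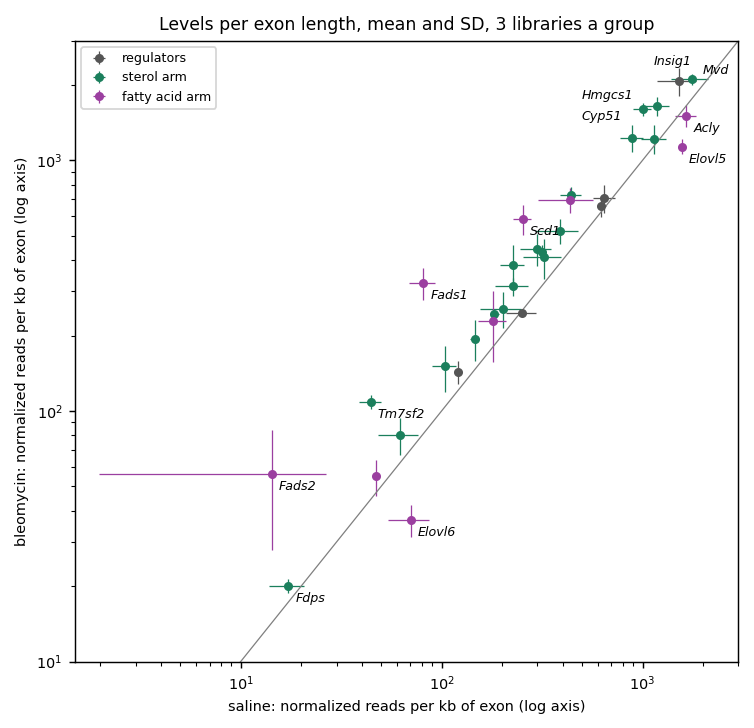
Mean normalized reads per kb of exon in saline (horizontal, log axis) against bleomycin (vertical, log axis) for the 33 genes, with SD over 3 libraries as bars and the line of equal levels. Fads1 (80.8 and 324), Scd1 and Tm7sf2 lie above the line, Elovl5 and Elovl6 below it, and Mvd is the highest in both groups.

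Set in order of level per kb, the 33 genes spanned from 1758 ± 372 for Mvd to 14.3 ± 12.3 for Fads2 in saline, and from 2102 ± 108 for Mvd to 20.0 ± 1.29 for Fdps after bleomycin. Lengths are those of all annotated exons merged, so the order of genes also depends on the annotation. The level of Fdps is uncertain, as given above. In saline the first 4 were Mvd, Acly, Elovl5 and Insig1, whose SDs overlap, so their order among themselves is not settled. After bleomycin Mvd and Insig1 (2072 ± 267) led, also without a difference beyond their spread, followed by Hmgcs1, Cyp51 and Acly. Elovl5 moved from rank 3 to rank 8, Scd1 from 17 to 13 and Fads1 from 27 to 19. Among the regulators Insig1 was the most abundant and Insig2 the least in both groups, and Srebf1 and Srebf2 were level within their spread.

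Beyond the 33, genes of the same pathways were taken from lists, which are described by counts. Of 13 other sterol genes, which cover transport, storage and SREBP processing, Npc2 and Soat1 rose and none fell (15.4% higher, against 9.76% of all tested genes). Npc2, which carries cholesterol out of lysosomes, had 16254, 17144.5 and 20589 in saline and 32046.5, 29070.5 and 31663 after bleomycin (1.73-fold, log2 0.79, SE 0.13, adjusted p = 0.00437). Soat1, which esterifies cholesterol for storage, had 9362, 9472 and 9335 in saline and 12499, 12606 and 13323 after bleomycin, with very little spread in either group (1.36-fold, log2 0.45, SE 0.10, adjusted p = 0.0168). The adjusted p of Soat1 was 0.0514 to 0.106 on removal of saline replicate 3 or of bleomycin replicate 2 or 5. The SREBP proteases Mbtps1 and Mbtps2 had log2 changes of -0.07 and 0.26 (adjusted p = 0.784 and 0.52).

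Of 20 other fatty acid genes, 15 were tested and 1 rose (6.667%, below the 9.76% of all tested genes), with none lower. This was Elovl7, a further elongase of long-chain fatty acids, at 2.94, 6.52 and 5.3 in saline and 116, 98.9 and 97.4 after bleomycin. It was almost silent in every saline library and clearly present in every bleomycin library, an 18.3-fold rise on the log2(value + 1) scale, which understates changes from so low a level (log2 4.20, SE 0.37, adjusted p = 0.000275). Acacb, Elovl3, Elovl4, Scd3 and Thrsp were too low to be tested.

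Of 8 tested genes of the liver X receptors, their targets and the oxysterol enzymes, 2 rose (25%, against 9.76% of all tested genes) and none fell. In 2 others the bleomycin libraries all lay below the saline ones without passing the test. Of all tested genes, 13.6% had groups apart in that direction. Liver X receptors sense oxysterols and turn on cholesterol export as well as Srebf1 and Scd genes. Abca1, the exporter of cholesterol to lipid-poor apolipoproteins, had 4561, 3352 and 3045 in saline and 5082, 6852 and 7677 after bleomycin (1.79-fold, log2 0.84, SE 0.19, adjusted p = 0.0229). Bleomycin replicate 1 stood close to saline replicate 1, and the call was lost (adjusted p = 0.0749 to 0.0959) on removal of saline replicate 2 or 3 or of bleomycin replicate 2 or 5. Cyp27a1, which makes an oxysterol that activates these receptors, had 202, 164 and 207 in saline and 488, 546 and 517 after bleomycin (2.71-fold, log2 1.44, SE 0.16, adjusted p = 0.000797). Abcg1, the exporter to larger particles, had a log2 change of -0.39 (adjusted p = 0.101), and Ch25h, another oxysterol enzyme, -0.88 (adjusted p = 0.109).

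The bleomycin libraries were not alike. Bleomycin replicate 1 was the lowest of its group in 11 of 19 sterol arm genes, 7 of 9 fatty acid genes and 21 of the 33, against 46.68% of all tested genes, and bleomycin replicate 2 was the highest in 13 of 19 sterol arm genes, against 27.46%. Among the members called higher, replicate 1 was the lowest in 6 of 9, and among all genes called higher it was the lowest in 79.53%. Its correlation with the saline libraries over all tested genes was 0.944 to 0.954, against 0.922 to 0.934 for bleomycin replicates 2 and 5, and its monocyte-derived marker sum was the lowest of the 3, as given above. With saline replicate 2 and bleomycin replicate 1 both left out, a setting chosen after the data were seen, 13 sterol arm genes were called higher, and of the fatty acid genes 5 were called higher and 2 lower. Among all 13512 tested genes that setting called 1597 higher and 607 lower, against 1319 and 527 with every library kept.

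Markers of other cells also moved with the treatment. The surfactant genes Sftpa1, Sftpb, Sftpc and Sftpd of alveolar type 2 cells, which are themselves active in lipid synthesis, summed to 75.5, 58.7 and 75.3 in saline and 376, 677 and 1019 after bleomycin, and 6 of the 9 tested genes on the type 2 list were called higher. The whole list of 10 summed to 3256, 2949 and 2852 in saline and 3427, 4817 and 5106 after bleomycin. Most of that total is Abca3, with a mean of 1456 in saline and 1394 after bleomycin, and Napsa, with 1312 and 1340. Neither Abca3 nor Napsa was called. T cell markers summed to 30.4 to 49 and 249 to 806 with 10 of 10 higher, and dendritic cell markers to 966 to 1518 and 2101 to 3294 with 6 of 8 higher. The sum of 10 epithelial markers ran the other way, from 24728 to 31979 in saline to 11475 to 19098 after bleomycin, with 4 genes higher and 2 lower. That sum is mostly Krt19, with a mean of 22717 in saline and 10009 after bleomycin, and Epcam, with 4378 and 1426, whereas Krt8, Krt18, Ager and Hopx were called higher from saline means of 14.3 to 61.1. Neutrophil markers summed to 447 to 1174 in saline and 1892 to 2189 after bleomycin. Of 4 tested, S100a8 (means of 279 and 974) and Cxcr2 (259 and 974) were called higher. S100a9 (172 and 37.9, with 503 in saline replicate 2) and Ltf (40.4 and 26.6) had lower means after bleomycin and were not called. B cell markers summed to 22.8 to 33.3 and 88 to 578, fibroblast markers to 35.3 to 325 and 230 to 864, endothelial markers to 7.61 to 20.6 and 28.7 to 81.9, and natural killer cell markers to 1.96 to 8.48 and 8.98 to 37.4. Of the tested genes, 2 of 2 B cell, 2 of 5 fibroblast and 0 of 1 endothelial markers were called higher, and no natural killer marker was tested. From 1 to 3 genes of each of the T cell, B cell, natural killer, neutrophil, dendritic, fibroblast and endothelial lists were at 0 in every saline library, and none in every bleomycin library. The sum of 12 proliferation genes was 23798 to 26811 in saline and 18646 to 20107 after bleomycin, with 5 lower and none higher. The part of these shifts in the sterol and fatty acid results was not tested.

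**Figure D5:**
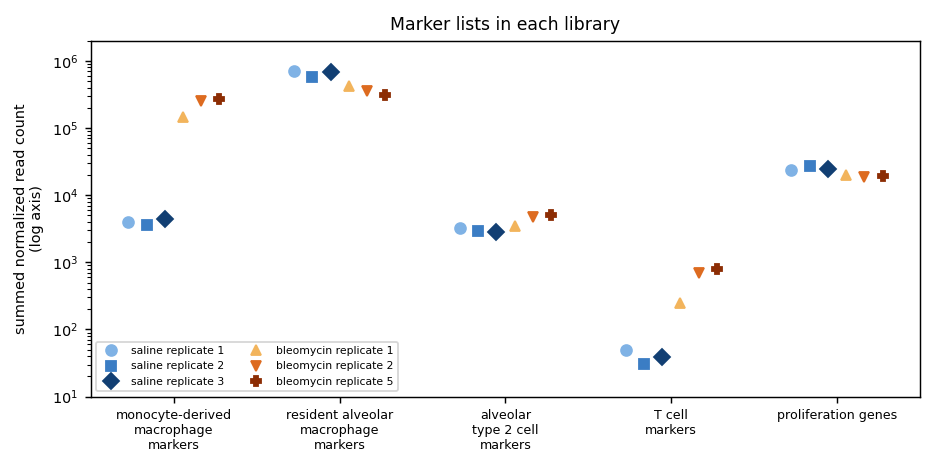
Summed normalized read counts of the marker lists (log axis), 1 point per library. Monocyte-derived markers are at 3649 to 4402 in saline and 146784 to 275589 after bleomycin, resident alveolar macrophage markers are at 572980 to 715579 and 309288 to 427290, and alveolar type 2 cell markers are at 2852 to 3256 and 3427 to 5106. Most of the type 2 sum is Abca3 and Napsa, neither of which was called.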

How the data were processed

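RNA from 3 saline and 3 bleomycin samples, grouped by the treatment in the labels, was sequenced. The submitters' processing notes name build mm10 and the tools STAR 2.5.2b, HTSeq 0.6.0, bcl2fastq 2.18.0.12 and DESeq2, without their roles, an annotation or a strand setting. The table deposited by the authors holds a normalized signal. Of its values above 0, 100% were whole multiples (within 0.05 of a read) of 1 read's value in that library, which makes them read counts divided by a size factor.

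The test was limma's (3.58.1, R 4.3.3), two-sided, with an intensity trend, on log2(value + 1) of the 13512 genes that reached 10 in 3 or more libraries, and p-values were adjusted over all of these by the Benjamini-Hochberg method. Alternatives were DESeq2 1.42.0 and edgeR's quasi-likelihood test (4.0.16) on the recovered reads, other pseudocounts, filters and scalings, no trend, a block on replicate number, and the removal of each library in turn with the tested genes unchanged. Positions and exon lengths (all exons merged) come from GENCODE M21. Libraries held 27654799 to 37147983 reads, and genes with few reads (Scd4 and, in saline, Elovl7 and to a lesser degree Fads2) carry more counting error.

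The members and lists were chosen with earlier results of these data known. Values per library are given for regulators, called members, the most abundant member per kb of each arm, and called genes of the other pathway lists. Some genes of those lists are not reported here. Acat2, Idi1, Fdps, Ebp, Acaca, Fasn, Scd2, Scd4, Fads2, Fads3, the surfactant genes and the named epithelial genes were added after their values were seen.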

Additional observations from a re-analysis of the deposited data

How the results depend on the processing

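Of 646 comparisons of single genes over 17 settings, 555 kept their direction and side of the threshold, 57 lost the call, 25 gained it and 9 changed sign. The genes compared were the 33 members and the called genes of the other lists (Npc2, Soat1, Elovl7, Abca1 and Cyp27a1). Only genes called in the main limma fit could lose a call, and most of the 33 were not called, so the pooled count overstates how stable the calls were. No regulator was called and no sterol arm gene was called lower under any setting. Sterol arm genes called higher numbered 3 with no trend, 2 with the replicate block, 13 without saline replicate 2 and bleomycin replicate 1 together, and 3 to 9 when single libraries were left out. Fatty acid genes called higher numbered 4 with no filter, 4 by DESeq2, 5 with both of those libraries left out and 2 to 5 with single libraries left out. Those called lower numbered 0 with no trend, 0 with the replicate block and 0 to 1 with single libraries left out. Over all tested genes, 768 to 1457 were called higher and 183 to 624 lower with single libraries left out, and the block gave 194 lower. With saline replicate 2 and bleomycin replicate 1 both left out, 1597 were called higher and 607 lower. Sign changes were all in genes that were not called. Leaving out single libraries gave Srebf1 a log2 change of -0.0006 to 0.14, Scap -0.13 to 0.11 and Ebp -0.0143 to 0.20. With both libraries left out Srebf1 was at -0.0056 and Ebp at -0.0068. The replicate block gave Srebf2 -0.0148, and quantile normalization gave Fdps -0.11. The block rests on replicates 1 and 2, which both groups share as numbers only: deviations of same-numbered libraries correlated at -0.201 and 0.024. The causes of these changes were not tested. Depth limits Elovl7 and Scd4, whose saline values rest on few reads (3, 6 and 5, and 11, 6 and 2). Fads2 had more, with 29, 86 and 18 saline reads, and its values there spread widely, with an SD of 40.5 about a mean of 47.0.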
